A study of Mus musculus with 6 samples.

Results

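The genes described here encode the MHC class II antigen presentation pathway of the mouse. They were the 10 genes whose identifiers mapped to the symbols H2-Aa, H2-Ab1, H2-Eb1, H2-DMa, H2-DMb1, H2-DMb2, H2-Oa, H2-Ob, Cd74 and Ciita, out of 20533 genes measured by RNA sequencing of the distal colon. They were picked as a pathway that had stood out in these same libraries, so their own differences between groups are given as a description and support nothing. All 6 libraries came from male C57BL/6 mice of wild-type genotype, 7 weeks old, whose tissue was taken after 7 days of treatment. The 3 groups of 2 libraries each received water, 2% dextran sulphate sodium (DSS, a polysaccharide that injures the colonic epithelium and provokes colitis), or 2% DSS plus montmorillonite powder, an adsorbent clay. Whether replicates were different mice is not stated in the labels, so every p-value measures the spread between these libraries, which may be technical.

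MHC class II molecules are pairs of an alpha and a beta chain that show peptides taken up by a cell to CD4 T cells. The invariant chain, encoded by Cd74, guides the pair to the endosome and fills its groove. H2-DM then exchanges the remaining invariant chain fragment for peptides, and H2-DO, found mostly in B cells, inhibits H2-DM. Ciita is the transactivator that switches these genes on, constitutively in dendritic cells and B cells and under interferon-gamma in other cells, among them the epithelial cells of the inflamed gut. It is recruited by factors bound to conserved X and Y boxes just upstream of class II genes.

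The upstream sequences of 4 members are shown because the X and Y boxes are what Ciita acts through and because these 4 members did not share a direction. H2-Eb1 and H2-Aa encode a beta and an alpha chain of the presenting molecules and had lower values in DSS than in water. H2-Ob and H2-DMb2, a chain of H2-DO and a chain of H2-DM, had higher values in DSS. Each stretch is from RefSeq, build GRCm38.p6, written 5′ to 3′ on the strand of the gene, at chr17:34305767-34305817 (plus strand) for H2-Eb1, chr17:34287862-34287913 (minus) for H2-Aa, chr17:34238809-34238857 (plus) for H2-Ob and chr17:34145117-34145168 (plus) for H2-DMb2. The stretches of H2-Oa and H2-DMb1 overlap the first exon that GENCODE annotates and are not shown. The stretch of H2-DMb2 lies upstream of the RefSeq start but inside the gene as GENCODE annotates it, from 34143307. Capitals mark the core of the Y box and, where the searched letters were found, the core of the X box.
H2-Eb1: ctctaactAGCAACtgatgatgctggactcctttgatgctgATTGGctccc
H2-Aa: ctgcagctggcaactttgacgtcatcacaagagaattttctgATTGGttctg
H2-Ob: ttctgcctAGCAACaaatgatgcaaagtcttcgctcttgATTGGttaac
H2-DMb2: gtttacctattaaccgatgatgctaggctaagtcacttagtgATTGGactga

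The search used AGNNAC followed after 24 to 34 bases by ATTGG, on either strand, in the 250 bases upstream of the RefSeq start. The reference table held 8 windows of 7 members; H2-Ab1, Cd74 and Ciita had none. H2-Eb1, H2-Ob, H2-Oa and H2-DMb1 held the pair, with 27, 25, 28 and 28 bases between the cores, against 1.63% of the 32851 windows of all genes. Of these 4 genes, H2-Eb1 and H2-DMb1 had lower values in DSS and H2-Ob and H2-Oa had higher values. H2-Aa and H2-DMb2 held the ATTGG core 48 and 90 bases upstream of the start without the searched X letters. Alone, ATTGG lay in 7 of the 8 windows of members and in 33.9% of all windows. A match is a description of letters and not a site of binding.

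Of the 10 members, 8 lie within 224 kb of chromosome 17 on GRCm38, from the start of H2-Oa at 34092340 to the end of H2-Eb1 at 34316674, all on the plus strand except H2-Aa (34282744 to 34287823). Ciita lies on chromosome 16 (10480059 to 10528418, plus strand) and Cd74 on chromosome 18. All 10 are annotated as protein-coding. Brd2, on the minus strand, overlaps the start of H2-DMa, and the antisense gene Gm20513 overlaps the start of H2-Eb1. Since strand-specific counting was not stated in the sources used here, reads in those overlaps cannot be assigned with certainty. Gm20513 stood at 2.27 or less in every library, and Brd2 ranged from 1310.0 to 1668 with a log2 difference of 0.14 ± 0.20 (SE) between DSS and water.

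**Figure D1:**
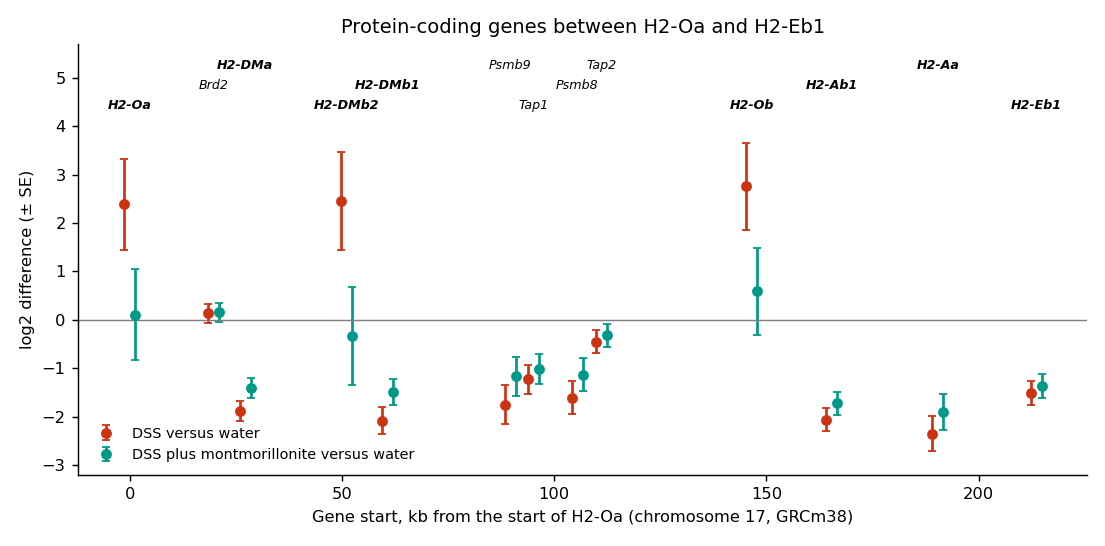
Log2 difference from water, with its SE, of the protein-coding genes from H2-Oa to H2-Eb1, for DSS and for DSS plus montmorillonite, by distance of each gene's start from the start of H2-Oa in kilobases; members are in bold. In DSS, H2-Oa, H2-DMb2 and H2-Ob lie above 0 and the 5 other members below it, side by side along the region.

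The libraries held 8936826 and 3741494 reads in water, 21481594 and 15212981 under DSS, and 6395768 and 4494666 under DSS plus montmorillonite. Both DSS libraries were thus deeper than all others, and the part of depth in the comparisons with DSS was not tested. A single read was worth a value of between 0.335 in DSS replicate 1 and 2.27 in water replicate 2. Epithelial markers were present in every library: Krt8, a keratin of simple epithelium, stood between 14561 and 65102, and none of the 8 epithelial markers was at 0. These markers cannot tell the distal colon from other parts of the gut, so that label itself was not checked. The 2 libraries of DSS plus montmorillonite stood apart from each other, with a correlation of 0.902 across genes. Replicate 1 correlated at 0.959 and 0.947 with the water libraries, and replicate 2 at 0.948 and 0.954 with the DSS libraries. Values of that group are therefore given for each of its libraries.

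The 10 members followed 2 patterns. In 7 of them (H2-Aa, H2-Ab1, H2-Eb1, H2-DMa, H2-DMb1, Cd74 and Ciita) both DSS libraries and both DSS plus montmorillonite libraries lay below both water libraries. In the other 3 (H2-DMb2, H2-Oa and H2-Ob) both DSS libraries lay above water, while DSS plus montmorillonite replicate 1 lay below water and replicate 2 above it. In DSS against water, groups without overlap were found in 28.5% of the 20307 genes tested in the lower direction and in 33.9% in the higher direction. As the members were chosen on these data, nothing is read from their 7 and 3 against those shares.

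**Figure D2:**
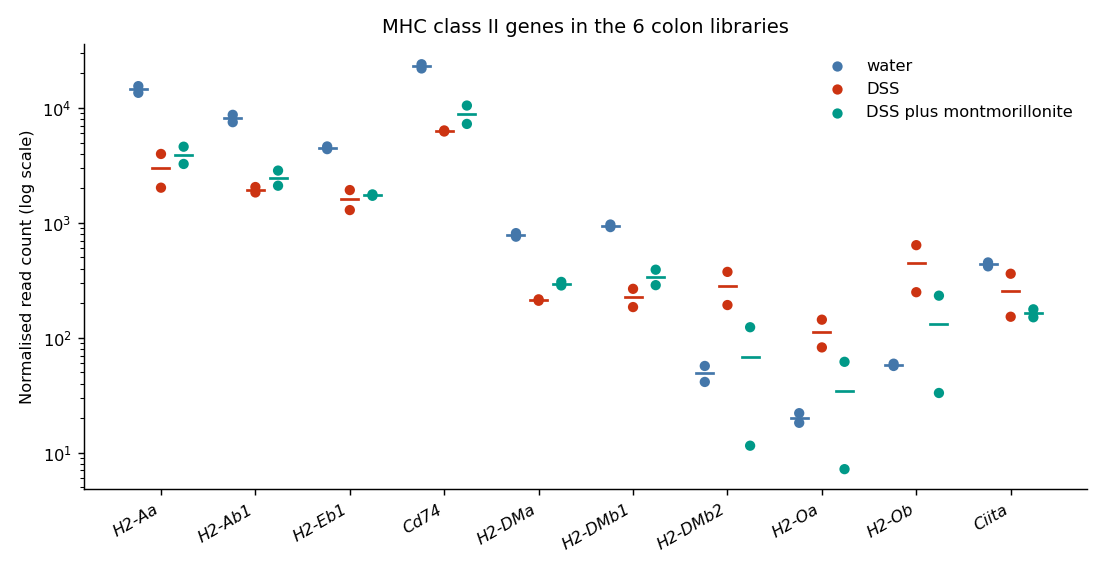
Normalised read count (log axis) of each of the 10 members in the 6 libraries as points, coloured by group, with a bar at each group mean. H2-Aa, H2-Ab1, H2-Eb1, H2-DMa, H2-DMb1, Cd74 and Ciita sit lower in all 4 DSS-treated libraries than in water, and H2-DMb2, H2-Oa and H2-Ob sit above water in 3 of those 4.

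H2-Aa encodes the alpha chain of I-A, one of the classical presenting molecules. Its normalised read count was 15485 and 13541 in water, 3979 and 2024 under DSS, and 4601 and 3256 under DSS plus montmorillonite. Both treated groups lay wholly below water and overlapped each other. H2-Aa in DSS was 5.10-fold lower than in water, a log2 difference of -2.35 ± 0.36 (SE), the largest downward difference among the members.

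H2-Ab1, the beta chain that pairs with H2-Aa, stood at 8713 and 7521 in water, 2051 and 1839 under DSS, and 2851 and 2106 under DSS plus montmorillonite. Here the 2 treated groups did not overlap, with DSS plus montmorillonite the higher by 0.33 ± 0.23 (log2 difference, SE). Against water, H2-Ab1 was 4.17-fold lower in DSS and 3.30-fold lower in DSS plus montmorillonite.

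H2-Eb1 encodes the beta chain of I-E. C57BL/6 mice are known to make no I-E on the cell surface because their alpha chain gene is defective. The level of H2-Eb1 was 4625 and 4382 in water, 1929.6 and 1292 under DSS, and 1720.2 and 1769.7 under DSS plus montmorillonite. Its DSS plus montmorillonite libraries lay between the DSS libraries. At 2.85-fold lower in DSS than in water, it had a smaller difference (-1.51 ± 0.24 log2, SE) than H2-Aa and H2-Ab1.

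Cd74, the invariant chain, was the most abundant member, at 24019 and 22074 in water, 6236 and 6374 under DSS, and 10495 and 7262 under DSS plus montmorillonite. The 3 groups did not overlap, with DSS plus montmorillonite in between. The log2 difference was -1.87 ± 0.26 (SE) in DSS and -1.40 ± 0.26 in DSS plus montmorillonite, each against water.

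The peptide exchange chains differed within the pathway. H2-DMa, the alpha chain of H2-DM, stood at 758 and 814 in water, 216 and 210.0 under DSS, and 306 and 285 under DSS plus montmorillonite. H2-DMb1, a beta chain of H2-DM, stood at 968 and 919 in water, 267 and 185 under DSS, and 391 and 287 under DSS plus montmorillonite. For both genes the groups did not overlap, and DSS plus montmorillonite again lay between DSS and water. H2-DMa was 3.68-fold and H2-DMb1 4.23-fold lower in DSS than in water.

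H2-DMb2 encodes a second beta chain of H2-DM and lies next to H2-DMb1, of which it is a close copy. Its values were 41.3 and 56.9 in water, 375 and 193 under DSS, and 11.5 and 124 under DSS plus montmorillonite. DSS was wholly above water by 2.45 ± 1.01 (log2 difference, SE), and the DSS plus montmorillonite libraries lay on either side of water. As a share of the reads of both beta chain genes, H2-DMb2 took 4.09% (exact Clopper-Pearson 95% interval 2.98% to 5.47%) and 5.83% (3.81% to 8.48%) in water. The share was 58.4% (56.2% to 60.6%) and 51.0% (47.5% to 54.6%) in DSS, and 2.86% (1.24% to 5.55%) and 30.1% (24.2% to 36.5%) in DSS plus montmorillonite. These intervals cover counting error only. The authors' handling of reads shared by the 2 copies is not given in the sources used here, so the split between them is uncertain.

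H2-Oa and H2-Ob encode the alpha and beta chains of H2-DO, the inhibitor of H2-DM. H2-Oa stood at 22.1 and 18.2 in water, 144 and 82.5 under DSS, and 7.19 and 61.8 under DSS plus montmorillonite, the first of these last values resting on 5 reads. H2-Ob stood at 59.5 and 56.9 in water, 639.9 and 249 under DSS, and 33.1 and 233 under DSS plus montmorillonite. Both chains were wholly above water in DSS and split on either side of it with montmorillonite. The log2 difference between DSS and water was 2.38 ± 0.94 (SE) for H2-Oa and 2.76 ± 0.90 for H2-Ob. DSS replicate 1 was the highest library for H2-DMb2, H2-Oa and H2-Ob.

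Ciita, the transactivator, stood at 418 and 453 in water, 361 and 152 under DSS, and 177 and 151 under DSS plus montmorillonite. DSS replicate 1 lay near water, while the other 3 treated libraries lay close together. With a difference of -0.89 ± 0.41 (log2, SE), Ciita in DSS was 1.85-fold below water, the smallest difference of the 10 members. In DSS plus montmorillonite it was 2.65-fold below water.

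**Figure D3:**
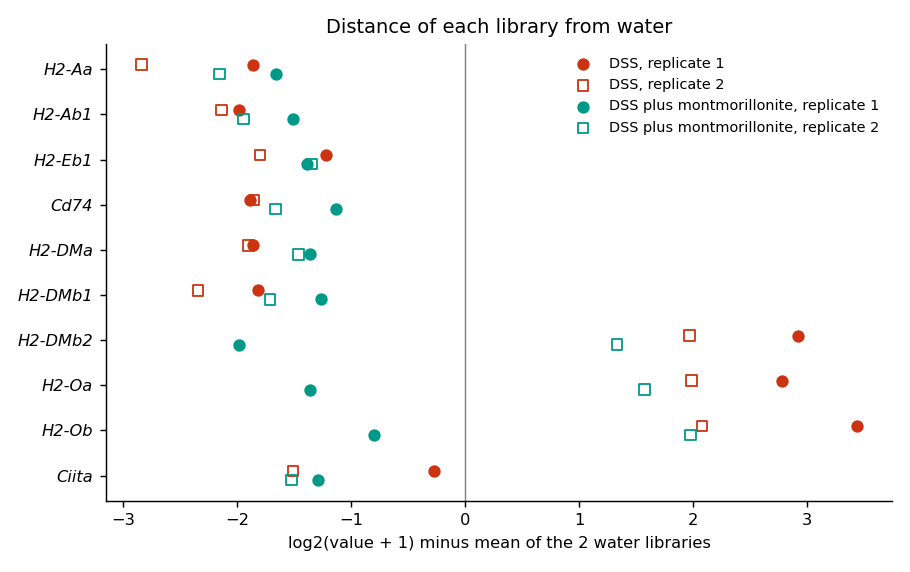
Log2 difference of each library from the mean of the water libraries, for each member (log2 of value + 1). H2-Aa in DSS replicate 2, at -2.84, is the lowest point, and H2-Ob in DSS replicate 1, at 3.44, the highest point.

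Normalised read count per kilobase of annotated exon allows levels of different genes to be compared. In water the order by mean level per kilobase was Cd74 (13726), H2-Aa (3821), H2-Ab1 (3161), H2-Eb1 (2317), H2-DMb1 (561), H2-DMa (228), Ciita (45.7), H2-DMb2 (28.1), H2-Oa (14.3) and H2-Ob (10.8). No pair of neighbours in that order overlapped between its 2 libraries. In DSS the levels per kilobase of H2-Eb1, H2-Aa and H2-Ab1 were 829, 790.2 and 757 and overlapped one another. H2-DMb2 (162 per kilobase) and H2-DMb1 (134) overlapped in DSS as well, as did H2-DMb1 and H2-Ob (82.6), and H2-Ob, H2-Oa (80.4) and H2-DMa (61.8). Ciita, at 26.9, was then the lowest member. In DSS plus montmorillonite the order from Cd74 (5288 per kilobase) to H2-DMb1 (202) and H2-DMa (85.8) was that of water, with H2-Aa, H2-Ab1 and H2-Eb1 again overlapping, and H2-DMb2, H2-Ob, H2-Oa and Ciita below them (38.7 to 17.2) overlapped too. Together the 10 members took 0.642% and 0.586% of all reads in water, 0.225% and 0.173% under DSS, and 0.224% and 0.190% under DSS plus montmorillonite.

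In this bulk tissue, the RNA level of the inhibitor genes relative to H2-DMa stood above its range in water in each of the DSS libraries. H2-Ob per kilobase stood at 0.0503 and 0.0448 of H2-DMa in water, at 1.90 and 0.761 under DSS, and at 0.0692 and 0.523 under DSS plus montmorillonite. H2-Oa per kilobase stood at 0.0713 and 0.0548 of H2-DMa in water, 1.63 and 0.962 under DSS, and 0.0575 and 0.531 under DSS plus montmorillonite. For both ratios the DSS libraries and DSS plus montmorillonite replicate 2 lay far above water, and DSS plus montmorillonite replicate 1 lay close to it. The low ratios rest on few reads. H2-Oa had 23 and 8 reads in water and 5 in DSS plus montmorillonite replicate 1, and H2-Ob had 62, 25 and 23. Within the classical molecules the ratios differed less: H2-Aa over H2-Ab1 per kilobase was 1.20 and 1.22 in water, 1.31 and 0.744 under DSS, and 1.09 and 1.05 under DSS plus montmorillonite. H2-Eb1 over H2-Ab1 per kilobase was 0.701 and 0.770 in water, 1.24 and 0.928 under DSS, and 0.797 and 1.11 under DSS plus montmorillonite, so that both treated groups lay above water. The ratio of Cd74 to H2-Ab1 ranged from 4.22 to 5.63 over the 6 libraries.

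**Figure D4:**
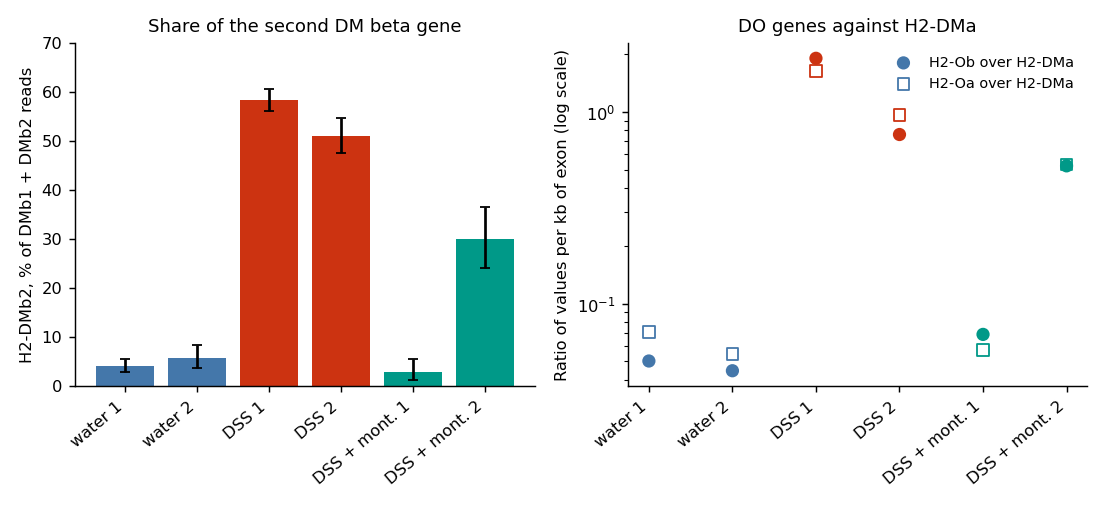
Left, bars of the share of H2-DMb2 in the reads of H2-DMb1 and H2-DMb2 by library, in percent with exact 95% binomial intervals; right, H2-Ob and H2-Oa relative to H2-DMa, each per kilobase of exon, on a log axis by library. Both DSS libraries and DSS plus montmorillonite replicate 2 stand above water in each panel, and DSS plus montmorillonite replicate 1 lies within or near the range of the water libraries.

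Across the 6 libraries, which share their groups, Pearson correlations of log2(value + 1) ranged from 0.69 to 0.99 over the 21 pairs among the 7 members lower in DSS. They ranged from 0.96 to 0.98 over the 3 pairs among H2-DMb2, H2-Oa and H2-Ob, and from -0.75 to 0.01 over the 21 pairs between both sets. Both sets were formed by their direction in these same libraries, so the ranges follow in part from that split and support nothing. The genes most like the mean of the 10 members, out of 13896 genes whose mean value reached 20, were Rnaseh2b (r = 0.995), Ispd (0.993), Gpx4-ps2 (0.990), Ncapd3 (0.987) and Adh5 (0.981). Because that mean mixes both patterns, single members were also used as the profile, a choice made after their values were seen. The genes most like H2-Aa were then H3f3a, Nfs1, Rsph3a, Psmb1 and Psme1 (r = 0.993 to 0.990). For H2-Ob they were Gimap8, Pitrm1, AI504432, Lyz2 and Snn (0.996 to 0.992), Lyz2 being in the list of monocyte and macrophage markers. For Ciita they were Gpx2, Zfp24, Psmb7, Cdkn3 and Mrpl36 (0.998 to 0.990). The highest of 13896 correlations over 6 libraries in 3 groups are high by selection, so these rankings support nothing.

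The median log2 difference of the 10 members was -1.69 in DSS against water, beside 0.10 over all genes tested. In limma on all 6 libraries, no member and no other gene passed a Benjamini-Hochberg adjusted p of 0.05 (0% of genes called; smallest adjusted p = 0.0576 over all genes and 0.141 among the members). At an unadjusted p under 0.05, 9 members and 4662 genes passed. EdgeR on the recovered reads also called 0 members. DESeq2 called 8 members (all but H2-Oa and Ciita) and 11.7% of genes. A limma fit of the 4 DSS and water libraries alone called 9 members, all but Ciita, and 15.1% of genes. Leaving out either DSS library from that fit left 0 members called, and leaving out either water library left 1 at most. In fits of 5 libraries without replicate 1 or replicate 2 of DSS plus montmorillonite, 9 members were called in DSS against water, among 3024 and 3085 genes.

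In DSS plus montmorillonite against water, the median over the members was -1.40, beside 0.06 over all genes, and it was -1.49 without replicate 1 and -1.36 without replicate 2 of the treated group. The 7 members were wholly below water and none was wholly above it, where 19.2% and 21.5% of all genes lay in those positions. No member passed in limma (smallest adjusted p = 0.268), and 7 had an unadjusted p under 0.05, as did 2058 of all 20307 genes. DESeq2 called 6 members, all of the 7 but Ciita, and 1.69% of genes, while edgeR and limma on the 4 libraries compared called 0 members. Without replicate 1 of DSS plus montmorillonite, limma on the other 5 libraries called 5 members and 978 genes. H2-DMb2 stood at -1.98 and 1.33 against water in the 2 libraries, H2-Oa at -1.36 and 1.58, and H2-Ob at -0.80 and 1.98, so the group means of these 3 genes describe neither library.

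Between DSS plus montmorillonite and DSS alone the median over the members was 0.24, beside -0.07 over all genes. Its sign was not stable: it was -0.019 with library size scaling, -0.092 without DSS replicate 2 and 0.42 without DSS replicate 1. H2-Ab1, H2-DMa, H2-DMb1 and Cd74 were wholly higher and H2-DMb2, H2-Oa and H2-Ob wholly lower with montmorillonite, while 19.4% and 20.6% of all genes were. For the higher 4 the log2 differences ran from 0.33 (H2-Ab1) to 0.59 (H2-DMb1, 95% interval -0.07 to 1.25). Those of the lower 3 ran from -2.77 (H2-DMb2) to -2.17 (H2-Ob), and for these 3 genes DSS plus montmorillonite replicate 1 lay much further below DSS than replicate 2. No member passed in limma (smallest adjusted p = 0.394; 3 had an unadjusted p under 0.05, as did 2291 of all 20307 genes), edgeR or DESeq2, which called 3.14% of genes. Without replicate 2 of DSS plus montmorillonite, limma on the other 5 libraries called 3 members and 2055 genes. Both comparisons with DSS share the DSS libraries, and both with water share the water libraries.

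The class II paralog H2-Eb2, which lies beyond H2-Eb1, was the gene of its list measured here. It stood at 13.4 and 25.0 in water, 222 and 69.0 under DSS, and 8.63 and 63.6 under DSS plus montmorillonite. As for H2-DMb2, H2-Oa and H2-Ob, both DSS libraries lay above water and the DSS plus montmorillonite libraries on either side of it. In the fit of 4 libraries H2-Eb2 rose in DSS by 2.69 ± 0.64 (log2 difference, SE, limma adjusted p = 0.0432). In limma on all 6 libraries H2-Eb2 did not pass (adjusted p = 0.187).

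The rest of the pathway was read from lists of genes. These were 79 genes in 8 lists. In limma on all 6 libraries none of the 79 passed in any comparison. At an unadjusted p under 0.05, 18 were higher and 16 lower in DSS against water, 4 and 8 in DSS plus montmorillonite against water, and 6 and 2 in DSS plus montmorillonite against DSS. Over all 20307 genes those counts were 2534 and 2128, 1090 and 968, and 1298 and 993. EdgeR called 0 in each, and DESeq2 called 19, 3 and 1. The words rose and fell below refer to calls in DSS against water in an alternative, the limma fit of 4 libraries. It was used for naming genes because the planned fit of 6 libraries called none. In that planned limma fit Ctss, Irf1 and Cxcl9, named below, had adjusted p of 0.148, 0.141 and 0.141. The fit of 4 libraries called 7.9% of all genes higher and 7.18% lower. Without either DSS library the fit of 4 libraries called 0 genes, and without a water library 288 and 317.

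Endosomal proteases and peptide handling genes divided: of 13 tested, 3 rose and 2 fell. Ctss, the cathepsin S that trims the invariant chain in professional presenting cells, stood at 5172 and 5085 in water, 3186 and 2132 under DSS, and 5634 and 3975 under DSS plus montmorillonite, and fell in DSS (-0.98 ± 0.23 log2, SE; adjusted p = 0.0406 in limma). Ctse, the aspartic protease cathepsin E, stood at 709 and 798 in water, 143 and 97.8 under DSS, and 997 and 151 under DSS plus montmorillonite, and fell too. Ctsl, Lgmn and March1 rose, Lgmn (an asparagine-specific endosomal protease) from 817 and 796 to 2391 and 3476. March1 is a ubiquitin ligase that removes class II molecules from the cell surface, and it stood at 63.3 and 45.5 in water against 235 and 144 in DSS. Ctsl, March1 and the further called genes named in these lists were chosen after their values were seen, where they were not the 2 with the smallest p.

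The factors that bind the X and Y boxes or act with Ciita showed no called gene among 11 in the fit of 4 libraries or in DESeq2, and none had an unadjusted p under 0.05. Their median log2 difference in DSS was 0.02. Rfx5, the X box factor, had values of 128 and 155 in water, 212 and 189.8 under DSS, and 115 and 158 under DSS plus montmorillonite. Creb1, which also binds the X box region, stood at 554 and 443 in water, 739 and 565 under DSS, and 496 and 471 under DSS plus montmorillonite. DSS was above water for both. Of the 11 factors, 3 were wholly above water in DSS and 2 wholly below it, where 33.9% and 28.5% of all genes lay. Their log2 differences ran from -0.72 to 0.51, so the list as a whole took no side.

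Among 17 inducers and repressors of Ciita, 4 rose (Spi1, Irf4, Pax5 and Tgfb1) and 2 fell (Irf1 and Ifngr2). Irf1, a factor that acts on the interferon-inducible Ciita promoter, stood at 3023 and 3718 in water, 1341 and 1107 under DSS, and 2729.9 and 1555 under DSS plus montmorillonite. Its difference in DSS was -1.46 ± 0.19 (log2, SE; limma adjusted p = 0.0108). Ifngr2, a chain of the interferon-gamma receptor, stood at 2182 and 1989.9 in water, 1216 and 899 under DSS, and 2333 and 1544 under DSS plus montmorillonite. Ifng itself, on 0 to 11 reads a library, stood at 10.6 and 11.4 in water, 2.68 and 1.44 under DSS, and 2.88 and 0 under DSS plus montmorillonite, and did not pass. Pax5, the B cell identity factor, went from 19.2 and 36.4 to 366 and 211.

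Interferon-gamma response genes mostly followed the 7 lower members in direction: of 15 tested, 6 fell in DSS and none rose. In DSS 12 were wholly below water and 1 wholly above it, where 28.5% and 33.9% of all genes lay. The chemokine gene Cxcl9 stood at 352 and 273 in water, 69.7 and 51.3 under DSS, and 79.1 and 85.4 under DSS plus montmorillonite, and fell in DSS by 2.36 on the log2 scale (SE 0.28; limma adjusted p = 0.00904). Iigp1, an interferon-inducible GTPase, stood at 1623 and 1576 in water, 573 and 518 under DSS, and 409.9 and 549 under DSS plus montmorillonite, and also fell. Both montmorillonite libraries were near DSS and far from water for both genes. In DSS plus montmorillonite against water 13 of the 15 were wholly below water and 1 wholly above it, where 19.2% and 21.5% of all genes lay. There the fit of 4 libraries called 0 (8 had an unadjusted p under 0.05), and DESeq2 called 3 lower.

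The co-stimulation list also holds inhibitory genes of the same families, among them Ctla4. All 10 of its genes tested were wholly higher in DSS than in water (33.9% of all genes were), and 3 rose (Cd86, Ctla4 and Icos). Some were near the floor: 1 and 2 of them stood at 0 in the water libraries, and 1 in DSS plus montmorillonite replicate 1. Cd86, a ligand on presenting cells, stood at 69.1 and 50.03 in water, 146 and 141 under DSS, and 41.7 and 98.1 under DSS plus montmorillonite. Cd4, the co-receptor that binds class II on T cells, stood at 68.1 and 59.1 in water, 152 and 156 under DSS, and 82.0 and 184 under DSS plus montmorillonite, and was the 1 gene of 6 T cell receptor and co-receptor genes to rise. Of the 6, 4 were wholly above water. A list of 6 genes held the cytokine gene Mif, its homologue Ddt and receptors linked to Cd74 as a receptor of MIF. Of these, 4 rose (Cd44, Cxcr2, Cxcr4 and Ackr3), and Ddt was wholly below water and did not pass. Cxcr2 was also in the list of neutrophil markers. Ackr3, an atypical chemokine receptor, went from 126 and 123 in water to 477 and 662 in DSS.

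Cell type markers differed between the groups along with the members, and in bulk tissue fewer cells of a type and less RNA per cell cannot be told apart. Of 10 B cell markers, 9 rose in DSS. The B cell marker sum was 397 and 548 in water, 5985 and 2601 under DSS, and 260.3 and 1984 under DSS plus montmorillonite, with none of the 10 at 0 in any library. The sum of H2-DMb2, H2-Oa and H2-Ob was 0.309 and 0.241 of that B cell sum in water, 0.194 and 0.202 under DSS, and 0.199 and 0.211 under DSS plus montmorillonite. The ratio was thus lower in every treated library than in water. This ratio was computed after the values were seen, and for no other marker list. The pattern was not particular to B cell markers. Pan-leukocyte markers had medians against water (log2) of 1.97 and 1.68 under DSS, and -0.42 and 1.39 under DSS plus montmorillonite. Neutrophil markers differed, at 0.52 in DSS plus montmorillonite replicate 1.

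The 7 members lower in DSS were set beside markers of monocytes and macrophages and of dendritic cells. Monocyte and macrophage markers summed to 6700 and 6122 in water, 13839 and 12612 under DSS, and 6300 and 15269 under DSS plus montmorillonite. In DSS 8 of 14 rose. Lyz2, 1 of these markers, stood at 2216 and 1888 in water, 6327 and 4393 under DSS, and 1743 and 4252 under DSS plus montmorillonite. Dendritic cell markers summed to 249.6 and 275 in water, 485 and 507 under DSS, and 260.3 and 636 under DSS plus montmorillonite, and 1 of the 10, Ccr7, rose. The sum of the 7 members was 8.21 and 8.12 times the monocyte and macrophage sum in water. It was 1.09 and 0.958 times under DSS, and 3.26 and 0.990 times under DSS plus montmorillonite. Both marker sums were higher in DSS than in water. Not every marker was: 2 of the 10 dendritic cell markers and 1 of the 14 monocyte and macrophage markers had a log2 difference below 0. Whether the number of these cells changed was not tested.

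Epithelial markers were lower in DSS as well: 7 of 8 fell, and their sum was 148028 and 154303 in water, 62426 and 42407 under DSS, and 156952 and 84962 under DSS plus montmorillonite. The 7 members summed to 0.371 and 0.322 of the epithelial sum in water, 0.241 and 0.285 under DSS, and 0.131 and 0.178 under DSS plus montmorillonite. DSS plus montmorillonite replicate 1 had an epithelial sum above both water libraries, with the 7 members at a median of -1.36 (log2) against water. In that library the marker lists of B cells, of monocytes and macrophages, and of neutrophils had medians of -0.98, -0.02 and 0.52 against water. The part of cell composition in the members' differences was not tested.

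**Figure D5:**
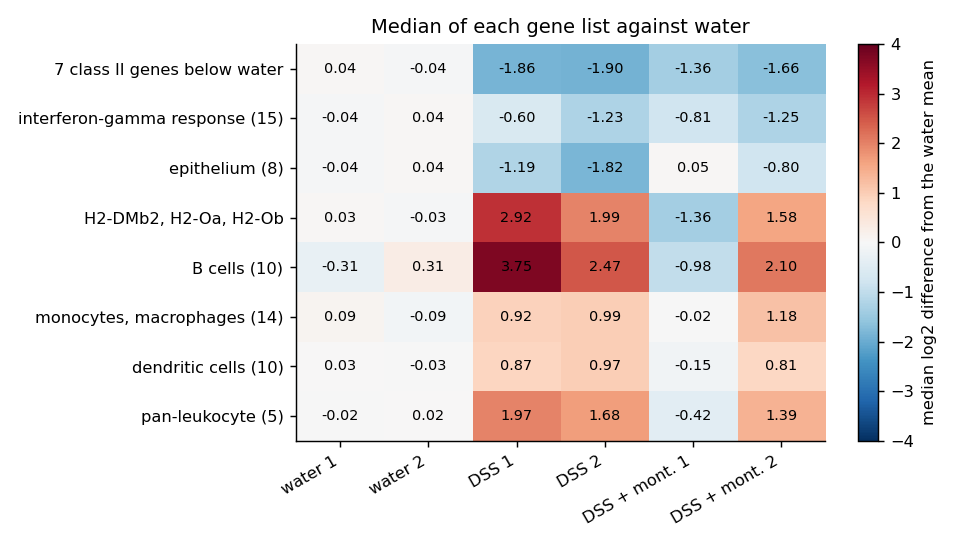
Heat map of the median log2 difference from the water mean, by library, for the 7 members lower in DSS, the 3 members higher in DSS, and marker or pathway lists. In the 4 treated libraries the 3 members stand at 2.92, 1.99, -1.36 and 1.58, and the B cell markers at 3.75, 2.47, -0.98 and 2.10. The pan-leukocyte markers stand at 1.97, 1.68, -0.42 and 1.39. The 7 members are low in all 4, also in the DSS plus montmorillonite library whose epithelial markers stand at 0.05.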

How the data were processed

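The authors deposited a table of signal values for 20533 genes in 6 libraries. Per the labels, reads were mapped to mm10 (GRCm38); the aligner and counter are not given in the sources used here. Each value was a whole multiple of 1 step per library (100% within 0.01 read), so the deposited signal is the read count over a factor of the library, which equalled its DESeq2 size factor. Genes with fewer than 10 reads in all are not among the values. Symbols, positions and exon lengths came from GENCODE M21 (20500 identifiers matched, 33 did not); all 10 members matched and passed the filter.

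Values were taken as log2(value + 1) and fitted in limma 3.58.1 (R 4.3.3, variance prior with an intensity trend), on the 20307 genes whose mean value reached 1, with the 3 groups in 1 fit of 6 libraries, two-sided, Benjamini-Hochberg adjusted, threshold 0.05. Fold changes are on that scale and understate those of low genes. Alternatives were the 4 libraries compared, a pseudocount of 5, no filter, edgeR 4.0.16 and DESeq2 1.42.0 on recovered reads (0 and 2376 genes called in DSS against water), library size and TMM scaling, a replicate block, and leaving out each library. Leaving out libraries from the 4-library fit was added after seeing the data. The limma code was tested on simulated data. Groups came from the sample titles. The members and lists were chosen with earlier results of these data known. Named genes of a list are the 2 per comparison with the smallest p among those whose mean value reached 5 and whose groups did not overlap, with exceptions stated where they occur.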

Additional observations from a re-analysis of the deposited data

How the results depend on the processing

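In DSS against water each of the 10 members kept its direction under all alternatives; the number called was 9 with 3064 genes in the fit of 4 libraries, 8 with 2376 in DESeq2, and 0 to 9 (0 to 3085 genes) when 1 library was left out of the 6, the lone library of its group being assumed to vary like the others. From the 4-library fit, leaving out a water library left 288 and 317 genes and at most 1 member, and leaving out a DSS library left 0 of each. Replicate numbers were shared between groups, and same-numbered libraries deviated together with correlations of 0.196, 0.160 and 0.409 across genes. With 2 pairs a comparison, and no label that ties a number to a mouse or batch, they were not taken as pairs; a replicate block called 678 genes and 6 members in DSS against water and 0 in the others. In DSS plus montmorillonite against water DESeq2 called 343 genes and 6 members, and leaving out 1 library gave 0 to 978 genes and 0 to 5 members, the highest without replicate 1 of DSS plus montmorillonite. H2-DMb2 turned from -0.33 to 0.44 in edgeR, 0.46 in DESeq2 and 1.33 without that library (-1.98 without replicate 2). H2-Oa turned from 0.11 to -0.03 without water replicate 2 and -1.36 without DSS plus montmorillonite replicate 2 (1.58 without replicate 1), and H2-Ob from 0.59 to -0.80 without replicate 2 (1.98 without replicate 1). Against DSS alone DESeq2 called 638 genes, leaving out 1 library gave 0 to 2055 genes and 0 to 3 members (0 to 285 and 0 to 1 in fits of 4 libraries), highest without DSS plus montmorillonite replicate 2. There library size scaling, which moved the median of all genes from -0.07 to -0.31, turned the members' median to -0.019 and H2-Eb1 to -0.11. Without DSS replicate 2 and replicate 1 in turn, the members' median was -0.092 and 0.42, H2-Aa -0.040 and 0.94, H2-Eb1 -0.15 and 0.43, and Ciita -1.14 and 0.099. The causes were not tested. In water replicate 2, the shallowest library, 1 read was a value of 2.27, which limits H2-Oa, H2-Ob and H2-DMb2 most.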

Other observations

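The class II region of chromosome 17 holds 9 genes that are not members between H2-Oa and H2-Eb1. Among them are the genes that prepare peptides for MHC class I: Psmb8 and Psmb9, subunits of the immunoproteasome, and Tap1 and Tap2, the peptide transporter of the endoplasmic reticulum. Psmb8 stood at 1675 and 1876 in water, 662 and 509 under DSS, and 1123 and 578 under DSS plus montmorillonite. In the limma fit of the 4 DSS and water libraries Psmb8 fell by 1.61 on the log2 scale (SE 0.19, adjusted p = 0.00906), Psmb9 by 1.75 and Tap1 by 1.22. In limma on all 6 libraries Psmb8, Psmb9 and Tap1 each had an adjusted p of 0.141 and did not pass. Tap2, separated from Tap1 by Psmb8, had a difference of -0.45 and did not pass (limma adjusted p = 0.191 in the fit of 4 libraries). Brd2, a bromodomain protein gene between H2-Oa and H2-DMa, stood at 0.14. H2-DMb2 and H2-DMb1, neighbours in this stretch, had differences of 2.45 and -2.08.

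Beyond H2-Eb1 lie H2-Eb2 and the butyrophilin-like genes Btnl2 and Btnl1, the latter known from the intestinal epithelium, where it takes part in the selection of intraepithelial T cells. Btnl1 stood at 219 and 243 in water, 13.1 and 6.23 under DSS, and 145 and 10.9 under DSS plus montmorillonite, and fell in DSS by 4.52 (log2, SE 0.44; limma adjusted p = 0.00655 in the fit of 4 libraries). Btnl2 stood at 92.1 and 109 in water, 45.2 and 22.1 under DSS, and 43.1 and 50.9 under DSS plus montmorillonite, and did not pass (adjusted p = 0.0593 in that limma fit). In limma on all 6 libraries neither gene passed (adjusted p = 0.141 for Btnl1 and 0.146 for Btnl2).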
